A study of Gallus gallus with 9 samples.

Results

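DNA glycosylases are the enzymes that open base excision repair (BER). Each recognises a particular kind of damaged or misplaced base, cuts it from the sugar, and leaves an abasic site that an endonuclease, a DNA polymerase, and a DNA ligase then repair. The substrates given for each enzyme below are known mainly from human, mouse, and bacterial enzymes. The genes followed here were UNG, SMUG1, MBD4, NTHL1, NEIL1, NEIL2, NEIL3, and MUTYH. They were taken by their Ensembl identifiers as named members of the family, with no threshold on their values. Earlier results of these data were known when these genes were chosen. They are not the whole family: TDG, MPG, and OGG1 stand with the other BER genes below. These are 8 of the 24356 genes in the count tables. Each was counted in some library, and they were tested within the set of 22698 genes with 1 count or more.

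Whole-transcriptome sequencing (WTS) was made from White Leghorn chickens in 9 libraries, 3 each of chicken embryonic fibroblasts (CEFs), EGK.X blastoderms, and primordial germ cells (PGCs), all of them unedited and untreated. CEFs, the reference, were adherent cells grown to passage 2 from the bodies of 5 embryos per replicate at HH stage 28 (embryonic day 6), freed of organs and limbs. EGK.X blastoderms were the undifferentiated embryos of freshly laid eggs, with 10 pooled per replicate, and they hold area opaca and hypoblast cells besides the epiblast. PGCs were the SSEA-1 positive, magnetically sorted fraction of 484 to 684 gonads per replicate at HH stage 28, so that somatic gonadal cells may remain in it.

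The total count on genes ranged from 29512715 in PGC replicate 2 to 67475925 in EGK.X blastoderm replicate 2. Levels are given as CPM, the counts of a gene per 1000000 counts of the library after scaling by trimmed mean of M values (TMM). The labels were checked with the pluripotency genes of the study's gene table. CEFs had 0 to 2 counts of NANOG, PGCs 5421 to 10558, and EGK.X blastoderms 38602 to 48462. Pou5f3 had 261 to 458 counts in CEFs, 7688 to 13852 in PGCs, and 29458 to 42849 in EGK.X blastoderms. SOX2 had 0 to 7 counts in CEFs, 133 to 247 in PGCs, and 101 to 405 in EGK.X blastoderms, where PGCs and blastoderms overlapped. These genes set CEFs apart from the other groups. As they are expressed in both PGCs and blastoderms, they do not check those labels against each other. Markers of fibroblasts, germ cells, and gonadal somatic cells were not used here, because their identifiers could not be paired with names. In bulk libraries, fewer cells of a type and less RNA per cell cannot be told apart.

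EGK.X blastoderm replicate 3 stood apart from the other blastoderms for several of these genes. It had the highest blastoderm CPM for SMUG1, MBD4, NTHL1, NEIL1, NEIL2, and NEIL3, and the lowest for UNG. For NTHL1 and UNG it lay close to the nearest other blastoderm (28.2 against 27.9 CPM, and 105 against 107 CPM). Of the pluripotency genes, SOX2 was also highest there, with 405 counts in that library against 101 and 139 in the others. NANOG was lowest there, at 567 CPM against 683 and 671 CPM in replicates 1 and 2. Pou5f3 was at 620 CPM there against 446 and 594 CPM. The part of replicate 3 in the results was not tested, and the values without it are given where a call rests on it.

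The 8 genes lie on 8 different chromosomes of GRCg6a, so none of them are neighbours of each other. UNG (ENSGALG00000021285) is on chromosome 15 from 6946607 to 6950966, SMUG1 (ENSGALG00000053068) on chromosome 33 from 7715050 to 7717518, and MBD4 (ENSGALG00000020747) on chromosome 12 from 19878301 to 19881713. NTHL1 (ENSGALG00000005617) is on chromosome 14 from 6660806 to 6665789 and MUTYH (ENSGALG00000010226) on chromosome 8 from 21385883 to 21389966. NEIL1 (ENSGALG00000001586) is on chromosome 10 from 3093547 to 3097724, NEIL2 (ENSGALG00000016664) on chromosome 3 from 107354453 to 107358580, and NEIL3 (ENSGALG00000010719) on chromosome 4 from 42233732 to 42250523. In the RefSeq table of another assembly (GRCg7b), UNG shares its span with 2 microRNA genes and NEIL3 shares its span with a long non-coding RNA gene. As the strand setting of the counting is not given in the sources used here, reads of such partners could not be separated from those of UNG and NEIL3. In the same table the other 6 genes overlap no gene. The gap to the nearest neighbour is 48 bp for NTHL1, 69 bp for MBD4, 97 bp for NEIL3, 143 bp for UNG, and 165 bp for NEIL1. It is 356 bp or more for MUTYH, NEIL2, and SMUG1.

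**Figure D1:**
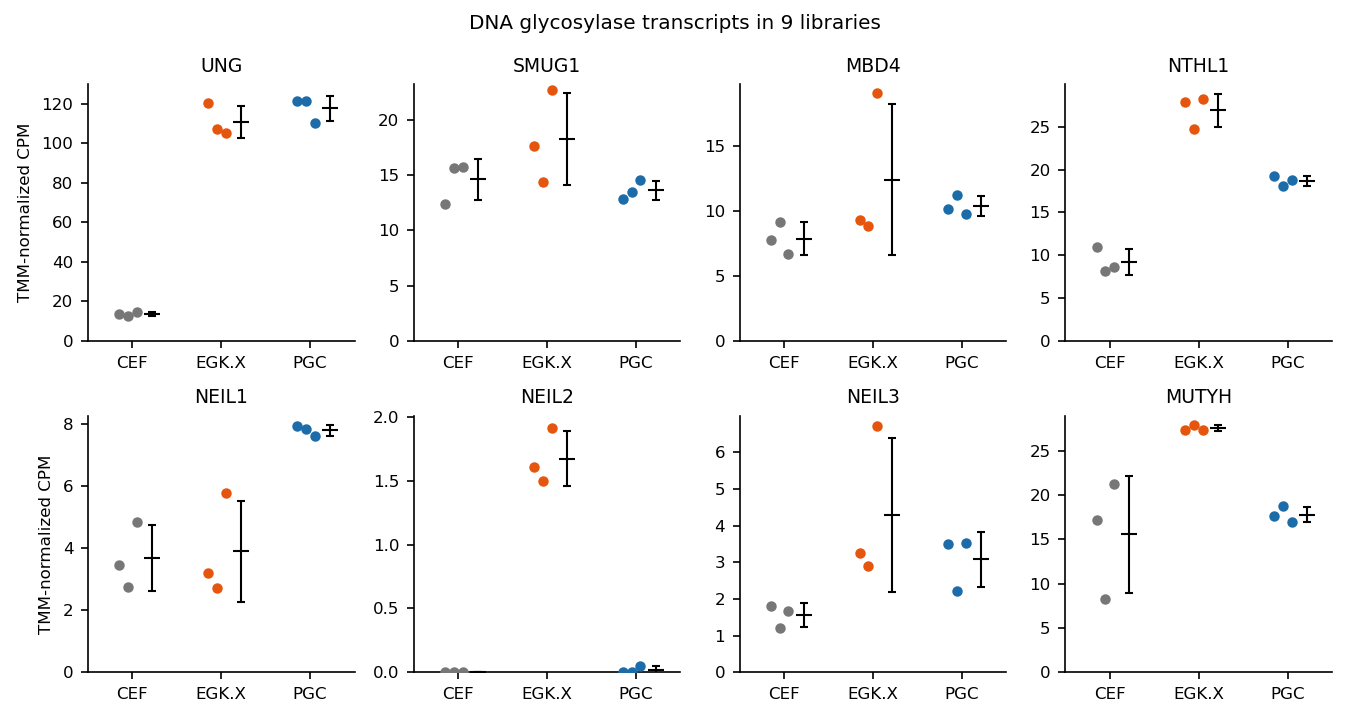
TMM-normalized CPM (vertical axes, linear and starting at 0) of the 8 glycosylase genes in each library (points, replicates 1 to 3 from left to right), with the mean and SD of the 3 libraries beside them. UNG lay at 105 to 122 CPM in all EGK.X blastoderm and PGC libraries against 12.4 to 14.6 CPM in CEFs, and NEIL2 had more than 3 counts only in EGK.X blastoderms.

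UNG removes uracil that has entered DNA by misincorporation or by deamination of cytosine, and it is the main uracil-DNA glycosylase of dividing cells. Its level was 13.5, 12.4, and 14.6 CPM in CEF replicates 1 to 3. In EGK.X blastoderms it was 120.2, 107, and 105 CPM. In PGCs it was 121, 122, and 110.4 CPM. Every blastoderm and PGC library was therefore far above every CEF library, while those of blastoderms and PGCs overlapped. UNG was 8.21-fold higher in EGK.X blastoderms than in CEFs, a log2 fold change of 3.04 (SE 0.14, adjusted p = 3.22e-09 in edgeR's quasi-likelihood test). In PGCs it was 8.72-fold higher than in CEFs, with a log2 fold change of 3.12 (SE 0.14, adjusted p = 2.09e-09). Between PGCs and EGK.X blastoderms the log2 fold change was 0.09 (SE 0.12, adjusted p = 0.574).

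SMUG1 also removes uracil, and in addition oxidised forms of thymine and uracil. Its level was 12.4, 15.7, and 15.7 CPM in CEFs, 17.6, 14.4, and 22.7 CPM in EGK.X blastoderms, and 12.8, 13.5, and 14.5 CPM in PGCs. The libraries of the 3 groups overlapped in each comparison, and none was called. The log2 fold change was 0.32 in EGK.X blastoderms against CEFs (SE 0.21, edgeR adjusted p = 0.209). In PGCs against CEFs it was -0.10 (SE 0.21, edgeR adjusted p = 0.707), a direction that turned to 0.59 with library size alone and to 0.02 with upper-quartile scaling. UNG was thus called higher in both undifferentiated cell types, and SMUG1 was not called in any comparison. TDG, a further glycosylase that removes thymine or uracil paired with guanine, was not called either. It was at 127 to 140.0 CPM in CEFs, 145 to 206 CPM in EGK.X blastoderms, and 103 to 127 CPM in PGCs. Its log2 fold change against CEFs was 0.42 in EGK.X blastoderms (SE 0.15, edgeR adjusted p = 0.0297) and -0.25 in PGCs (SE 0.15, edgeR adjusted p = 0.178). In PGCs against EGK.X blastoderms it was -0.67 (SE 0.15, edgeR adjusted p = 0.00224). The first and last of these pass the adjusted p but not the fold threshold.

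MBD4 binds methylated CpG sites and removes thymine or uracil paired with guanine, the products of deamination there. It was at 7.81, 9.17, and 6.66 CPM in CEFs and at 10.1, 11.2, and 9.76 CPM in PGCs. In EGK.X blastoderms it was at 9.29, 8.84, and 19.1 CPM, so that replicate 3 alone lay above all PGC libraries. The log2 fold change against CEFs was 0.66 in EGK.X blastoderms (SE 0.29, edgeR adjusted p = 0.0757, and 0.20 without replicate 3) and 0.40 in PGCs (SE 0.29, edgeR adjusted p = 0.276). PGC libraries did not overlap with CEF libraries, but the change was not called. Between PGCs and EGK.X blastoderms the log2 fold change was -0.26 (SE 0.29), and without EGK.X blastoderm replicate 3 it turned to 0.19.

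NTHL1 removes oxidised pyrimidines such as thymine glycol and also nicks the strand at the site. Its level was 11.0, 8.17, and 8.61 CPM in CEFs, 27.9, 24.7, and 28.2 CPM in EGK.X blastoderms, and 19.2, 18.1, and 18.7 CPM in PGCs. The 3 groups did not overlap, and the order was EGK.X blastoderms, PGCs, CEFs. NTHL1 was 2.90-fold higher in EGK.X blastoderms than in CEFs (log2 fold change 1.54, SE 0.18, edgeR adjusted p = 1.15e-05). In PGCs it was 2.01-fold higher than in CEFs (log2 fold change 1.01, SE 0.18, edgeR adjusted p = 0.000358). That change lay just over the threshold, and the log2 fold change fell just under 1 in 7 of the 19 alternative fits (0.93 to 1.00). In 4 of these a library was left out, namely CEF replicate 2, CEF replicate 3, EGK.X blastoderm replicate 2, or PGC replicate 1. In PGCs against EGK.X blastoderms the log2 fold change was -0.53 (SE 0.17, edgeR adjusted p = 0.0221), which passes the adjusted p but not the fold threshold.

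The 3 NEIL genes encode glycosylases related to bacterial Fpg and Nei. In mammals, NEIL1 and NEIL2 remove oxidised bases in duplex and bubble structures, and NEIL3 acts on single-stranded DNA and unhooks interstrand crosslinks. NEIL1 was highest in PGCs, NEIL2 was nearly confined to EGK.X blastoderms at this depth, and NEIL3 was lowest in CEFs.

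NEIL1 was at 3.45, 2.74, and 4.83 CPM in CEFs and at 3.20, 2.73, and 5.76 CPM in EGK.X blastoderms. In PGCs it was at 7.94, 7.82, and 7.59 CPM, above every library of the other groups. It was 2.12-fold higher in PGCs than in CEFs (log2 fold change 1.08, SE 0.33, edgeR adjusted p = 0.0133). Without CEF replicate 2 the log2 fold change was 0.91 and the call was lost. Between PGCs and EGK.X blastoderms the log2 fold change was 1.00 (SE 0.32, edgeR adjusted p = 0.0198), just under the threshold. Without EGK.X blastoderm replicate 3 it was 1.39 and called (1.02 and called without PGC replicate 3). Over the 19 alternative fits it ranged from 0.78 to 1.39 and was called in 6. Its adjusted p did not stay under 0.05 in all of them. EGK.X blastoderms and CEFs overlapped, with a log2 fold change of 0.08 (SE 0.32, edgeR adjusted p = 0.857) whose sign turned without CEF replicate 2 or EGK.X blastoderm replicate 3.

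NEIL2 had no count in any of the 3 CEF libraries. In EGK.X blastoderms it had 106, 108, and 130 counts, or 1.61, 1.50, and 1.91 CPM. In PGCs it had 0, 0, and 3 counts. NEIL2 was at least 69.1-fold higher in EGK.X blastoderms than in CEFs, taking 3 counts over the summed CEF libraries as the floor (edgeR adjusted p = 4.28e-05). Against PGCs the ratio of the summed counts, 344 to 3, was 92.2 after scaling, with an exact 95% interval from 31.3 to 449 (edgeR adjusted p = 7.54e-05). Interval and floor cover counting error only, and PCR copies are not independent molecules. No fold is given between PGCs and CEFs, as both were at the floor and a difference was not detectable at this depth. The level in blastoderms was itself low, below that of every other glycosylase with counts in the same libraries before any account of transcript length.

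NEIL3 was at 1.82, 1.21, and 1.67 CPM in CEFs. In EGK.X blastoderms it was at 3.26, 2.90, and 6.71 CPM, and in PGCs at 3.50, 2.21, and 3.54 CPM. Both groups lay above every CEF library, although PGC replicate 2, the shallowest library, held only 82 counts. NEIL3 was 2.73-fold higher in EGK.X blastoderms than in CEFs (log2 fold change 1.45, SE 0.38, edgeR adjusted p = 0.00617). The log2 fold change was 0.97 without EGK.X blastoderm replicate 3 and 0.98 with limma on all libraries (limma adjusted p = 0.0167), and the call was lost in both. The limma fit used log2(CPM + 1) values, which shrink the changes of a gene at this low level. In PGCs against CEFs it was 0.98 (SE 0.38, edgeR adjusted p = 0.0463), just under the fold threshold. Over the 19 alternative fits it ranged from 0.66 to 1.65. It was called in 6, among them DESeq2 (1.03) and the fit without PGC replicate 2 (1.15). Its adjusted p rose above 0.05 with limma and without CEF replicate 1, 2, or 3. The same held without EGK.X blastoderm replicate 1, PGC replicate 1, or PGC replicate 3. The highest was an edgeR adjusted p of 0.132, without PGC replicate 1. Between PGCs and EGK.X blastoderms the log2 fold change was -0.47 (SE 0.37), and 0.01 without EGK.X blastoderm replicate 3.

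MUTYH removes adenine that has been paired with 8-oxoguanine. In CEFs it was at 17.2, 8.30, and 21.2 CPM, the widest relative spread of any glycosylase in CEFs, with a coefficient of variation of 42.4%. The EGK.X blastoderms were close together at 27.4, 27.9, and 27.3 CPM (coefficient of variation 1.22%), and PGCs were at 17.6, 18.7, and 17.0 CPM. Blastoderms lay above all libraries of the other groups, and PGCs and CEFs overlapped. The log2 fold change of EGK.X blastoderms against CEFs was 0.82 (SE 0.27, edgeR adjusted p = 0.0204), which did not reach the fold threshold. Without CEF replicate 3 it was 1.11 and called, and without CEF replicate 2 it was 0.52 and not called. In PGCs against EGK.X blastoderms it was -0.63 (SE 0.27, edgeR adjusted p = 0.0645), and in PGCs against CEFs 0.19 (SE 0.27, edgeR adjusted p = 0.576), or -0.11 without CEF replicate 2.

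**Figure D2:**
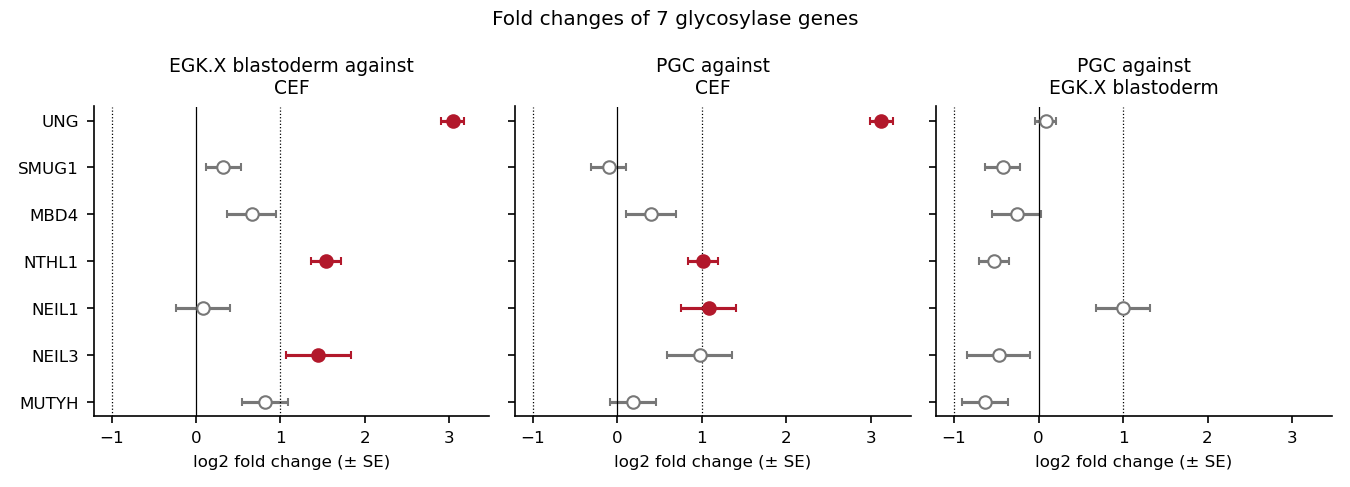
Log2 fold changes of 7 glycosylase genes in the 3 comparisons (horizontal axes, points with SE bars), with filled red points for genes called higher and dotted lines at the threshold of 1 in either direction. NEIL2 is left out because its fitted change rests on groups at the floor. UNG stood at 3.04 and 3.12 against CEFs and at 0.09 between PGCs and EGK.X blastoderms.

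Set together, 4 of the 8 glycosylases (UNG, NTHL1, NEIL2, and NEIL3) were called higher in EGK.X blastoderms than in CEFs, where 23.1% of all genes tested were called higher. To be called, a gene needed an edgeR adjusted p under 0.05 over all genes and a log2 fold change above 1 or below -1. None was called lower by edgeR, DESeq2, or limma, where 21.6% of all genes were by edgeR. Of the 8, 0 had an unadjusted edgeR p under 0.05 with a log2 fold change below 0, against 6537 of all 22698 genes. All 8 log2 fold changes were above 0, as were 11788 of all 22698. Without NEIL2 the median of the other 7 was 0.82 against 0.09 for all genes tested. The libraries of the groups did not overlap for 5 of the 8 genes, all higher (31.6% of all genes), and for none were all lower (27.8% of all genes). With library size alone in place of TMM factors, the median of all genes rose by 0.50 and MUTYH and MBD4 were called as well.

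In PGCs compared with CEFs, 3 of the 8 (UNG, NTHL1, and NEIL1) were called higher, where 23.7% of all genes were. Without CEF replicate 2 the number was 1, UNG. None was called lower by edgeR, DESeq2, or limma, where 18.5% of all genes were by edgeR. In that direction 0 had an unadjusted edgeR p under 0.05, against 6512 of all 22698 genes. The median log2 fold change of the 7 genes without NEIL2 was 0.98, against 0.05 for all genes. In 5 of the 8 every PGC library was above every CEF library (34.5% of all genes) and in none were all lower (30.5% of all genes). Library size alone raised the median of all genes by 0.68 and gave 5 calls.

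In PGCs compared with EGK.X blastoderms, NEIL2 was the 1 gene called lower, where 18.5% of all genes were called lower. None was called higher by edgeR, where 23.4% of all genes were. In that direction 1 gene, NEIL1, had an unadjusted edgeR p under 0.05, against 6938 of all 22698 genes. DESeq2 called NEIL1, while limma, on log2(CPM + 1) values, called none. The median of the 7 other genes was -0.42 against 0.03 for all genes. NTHL1, NEIL2, and MUTYH were lower in every PGC library than in every blastoderm library, against 30.3% of all genes, and NEIL1 was higher in every one, against 33.4%. This comparison and the former ones share libraries, so their values are not independent of each other.

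The share of each gene in the summed counts of the 8 glycosylases was compared next, as a share within a library does not depend on the scaling between libraries. These shares are not corrected for transcript length and leave out the other glycosylases with counts, TDG and MPG. UNG made up 20.1%, 21.6%, and 19.9% of the summed counts in CEFs. It made up 57.1%, 56.4%, and 48.5% in EGK.X blastoderms and 63.0%, 63.0%, and 60.8% in PGCs. The 3 groups did not overlap, and the mean of CEFs was 20.5% ± 0.902, that of EGK.X blastoderms 54.0% ± 4.81, and that of PGCs 62.3% ± 1.27 (SD, n = 3 each). Each pair of groups gave an exact two-sided permutation p of 0.1, the smallest that 3 libraries against 3 allow (0.12 after Benjamini-Hochberg adjustment over the 12 tests of shares and ratios). The size of the share depended on the genes summed. With TDG and MPG added, an alternative chosen after seeing the data, CEFs had a UNG share of 6.11% to 7.07%, EGK.X blastoderms of 27.8% to 28.3%, and PGCs of 34.6% to 39.8%, again without overlap.

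As UNG took a larger share, the shares of most others were smaller. The SMUG1 share in CEFs was 22.4% ± 4.41, in EGK.X blastoderms 8.80% ± 1.49, and in PGCs 7.21% ± 0.710 (SD, n = 3 each). MUTYH made up 23.0% ± 7.62, 13.4% ± 1.10, and 9.39% ± 0.267 in the same order (SD, n = 3 each). NTHL1 had nearly the same share in CEFs and EGK.X blastoderms, 14.1% ± 2.31 and 13.1% ± 0.152, and 9.89% ± 0.484 in PGCs (SD, n = 3 each). The summed level of the 8 genes in CEFs was 66.0 ± 7.85 CPM, in EGK.X blastoderms 206 ± 13.8 CPM, and in PGCs 189 ± 6.48 CPM (SD, n = 3 each). Without UNG it was 52.5 ± 6.78, 95.0 ± 15.0, and 71.3 ± 0.168 CPM (SD, n = 3 each). UNG was thus most of the difference from CEFs in both EGK.X blastoderms and PGCs.

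**Figure D3:**
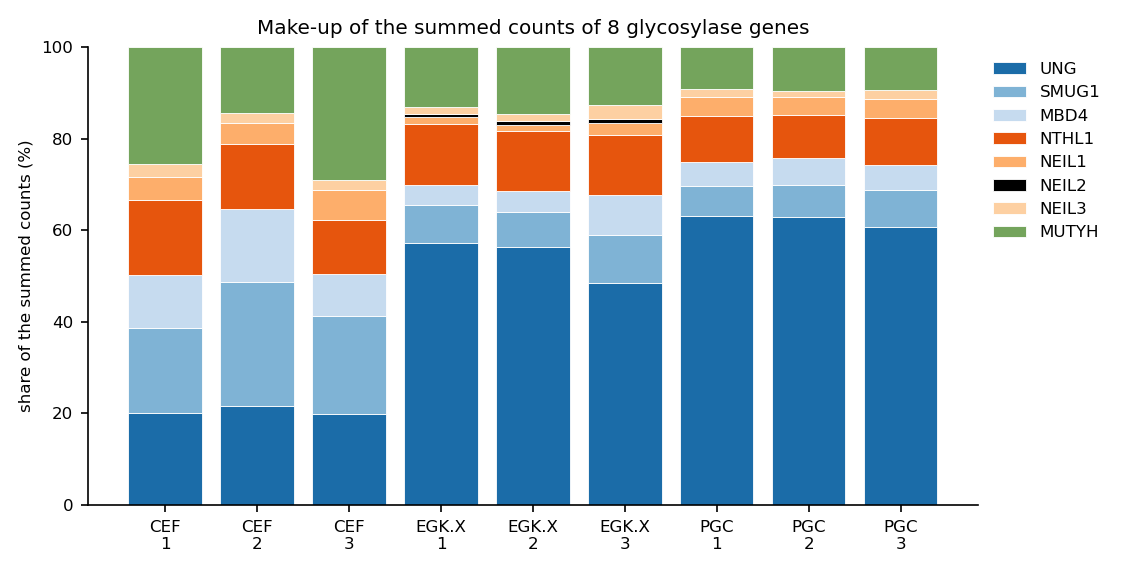
Share of each gene in the summed counts of the 8 glycosylase genes (vertical axis, percent) in each of the 9 libraries (bars, by group and replicate). CEFs had a UNG share of 19.9% to 21.6%, EGK.X blastoderms of 48.5% to 57.1%, and PGCs of 60.8% to 63.0%.

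Ratios of 2 genes within a library were used in the same way. The ratio of UNG to SMUG1 counts was 1.09, 0.794, and 0.929 in CEFs. It was 6.82, 7.46, and 4.64 in EGK.X blastoderms and 9.48, 9.04, and 7.59 in PGCs. On the log2 scale, EGK.X blastoderms were 2.73 above CEFs and PGCs 3.22 above CEFs, without overlap of libraries. PGCs were 0.49 above EGK.X blastoderms on that scale, also without overlap. The ratio of UNG to MBD4 counts in CEFs was 1.36 to 2.19, in EGK.X blastoderms 5.49 to 12.9, and in PGCs 10.8 to 12.0, so that blastoderms and PGCs overlapped. The exact two-sided permutation p was 0.1 for each pair of groups without overlap, and 1 for UNG to MBD4 between PGCs and EGK.X blastoderms.

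The ratio of NEIL3 to NEIL1 counts separated EGK.X blastoderms from both other groups. It was 1.02, 1.06, and 1.17 in EGK.X blastoderms, against 0.526, 0.443, and 0.345 in CEFs and 0.441, 0.283, and 0.466 in PGCs. EGK.X blastoderm replicate 3 was close to its group by this measure, although both genes were at their highest blastoderm level there. The mean log2 ratio was 0.11 ± 0.10 (SD, n = 3) in EGK.X blastoderms, -1.21 ± 0.31 (SD, n = 3) in CEFs, and -1.37 ± 0.40 (SD, n = 3) in PGCs. The exact two-sided permutation p was 0.1 for EGK.X blastoderms against each other group and 0.6 for PGCs against CEFs. NEIL2 could be set against the other NEIL genes only in EGK.X blastoderms, where its counts were 0.332 to 0.548 of those of NEIL1.

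**Figure D4:**
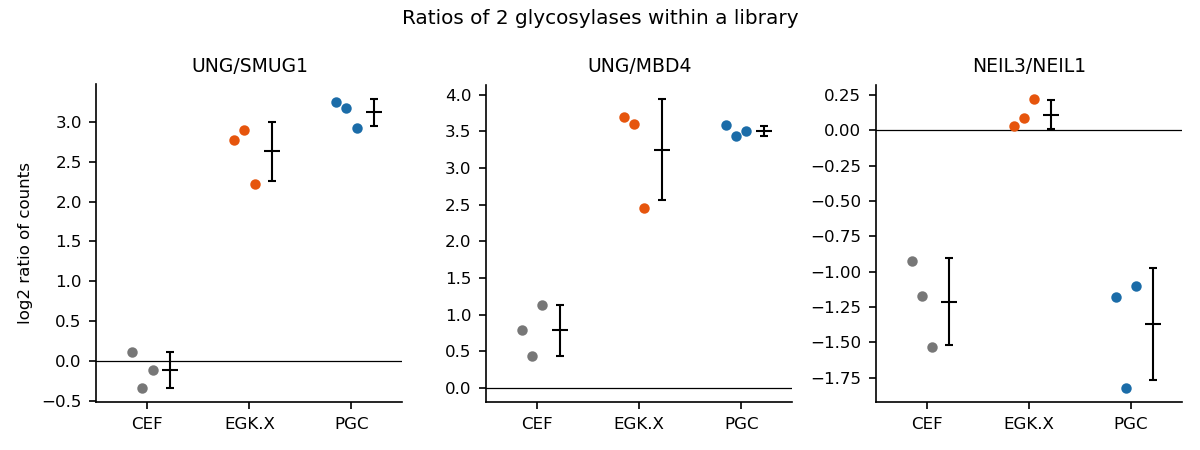
Log2 ratios of the counts of 2 glycosylases within a library (vertical axes, log2 scale; points are libraries, bars the mean and SD of 3). For UNG/SMUG1 and UNG/MBD4 all EGK.X blastoderm and PGC libraries lay above all CEF libraries, and for NEIL3/NEIL1 the EGK.X blastoderms lay above the others.

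The remaining genes of the BER list in the study's gene table were then examined. Most act in the steps after the glycosylases, but 3 are glycosylases themselves: TDG, MPG, which removes alkylated purines, and OGG1, which removes 8-oxoguanine. Of the 19 genes, OGG1 had no count in any library and the other 18 were tested, with TDG and MPG in the counts and medians. MPG was at 6.13 to 8.14 CPM in CEFs, 7.26 to 12.7 CPM in EGK.X blastoderms, and 9.71 to 11.0 CPM in PGCs and, like TDG, was not called in any comparison. In EGK.X blastoderms compared with CEFs, 3 of the 18 were called higher and 2 lower, where 23.1% and 21.6% of all genes were. The higher number was 5 with DESeq2, 6 with upper-quartile scaling, and 8 with library size alone. It was also 5 without CEF replicate 1, PGC replicate 1, or PGC replicate 2. In PGCs compared with CEFs, 3 were called lower, where 18.5% of all genes were. None was called higher by edgeR, DESeq2, or limma, where 23.7% of all genes were by edgeR. Of the 18, 4 had an unadjusted edgeR p under 0.05 with a log2 fold change above 0, against 7045 of all 22698 genes. With library size alone the direction turned, to 4 higher and 0 lower. In PGCs compared with EGK.X blastoderms, 2 were called higher and 6 lower, where 23.4% and 18.5% of all genes were. The medians of the 18 log2 fold changes were 0.45, 0.02, and -0.50 in the 3 comparisons.

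The 3 genes called higher in EGK.X blastoderms than in CEFs were PCNA, FEN1, and POLD3. PCNA, the sliding clamp, was at 487 to 679 CPM in EGK.X blastoderms, 136 to 194 CPM in CEFs, and 143 to 165 CPM in PGCs (log2 fold change against CEFs 1.91, SE 0.17). FEN1, the flap endonuclease, was at 224 to 237 CPM in EGK.X blastoderms, 80.8 to 95.6 CPM in CEFs, and 60.3 to 65.9 CPM in PGCs (log2 fold change 1.40, SE 0.12). POLD3, a subunit of DNA polymerase delta, was at 128 to 171 CPM in EGK.X blastoderms, 51.8 to 60.4 CPM in CEFs, and 52.6 to 56.4 CPM in PGCs (log2 fold change 1.42, SE 0.14). The blastoderms did not overlap with the other groups for these 3 genes, and in PGCs all 3 were called lower than in EGK.X blastoderms. Unlike UNG, whose PGC and blastoderm libraries overlapped, PCNA and POLD3 overlapped between PGCs and CEFs.

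LIG3 and POLB, the ligase and the polymerase of short-patch repair, were lowest in PGCs. LIG3 was at 47.7 to 54.5 CPM in PGCs, 80.7 to 88.3 CPM in CEFs, and 142 to 188 CPM in EGK.X blastoderms, and it was called lower in PGCs than in EGK.X blastoderms (log2 fold change -1.74, SE 0.14). Its change in EGK.X blastoderms against CEFs, 1.00 (SE 0.14), fell just short of the threshold. POLB was at 11.6 to 13.6 CPM in PGCs, 30.3 to 36.1 CPM in CEFs, and 37.0 to 47.8 CPM in EGK.X blastoderms. It was lower in PGCs than in CEFs by a log2 fold change of -1.36 (SE 0.16, edgeR adjusted p = 1.37e-05), whereas UNG was higher there by 3.12. HMGB1, a chromatin protein that can stimulate repair, was at 154 to 190 CPM in PGCs against 309 to 441 CPM in CEFs, and was called lower in PGCs in both comparisons. The call against CEFs (log2 fold change -1.10) was lost without CEF replicate 1 (-0.92) and with upper-quartile factors (-0.98). The call against EGK.X blastoderms (-1.05) was lost without EGK.X blastoderm replicate 1 (-0.98) and with library size alone (-0.87). With library size alone neither HMGB1 nor POLB nor PARP4 was called lower than in CEFs.

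The other called genes were PARP3, PARP4, and POLE4. PARP3, a poly(ADP-ribose) polymerase that responds to strand breaks, was at 0.803 to 1.44 CPM in EGK.X blastoderms, against 9.98 to 15.8 CPM in CEFs and 11.5 to 16.1 CPM in PGCs. PARP4 was at 93.1 to 118 CPM in CEFs, 37.0 to 80.5 CPM in EGK.X blastoderms, and 41.1 to 58.6 CPM in PGCs. It was called lower in PGCs than in CEFs (log2 fold change -1.13, SE 0.26). In EGK.X blastoderms against CEFs the log2 fold change was -0.94 (SE 0.25, edgeR adjusted p = 0.00678), short of the fold threshold. POLE4, a small subunit of DNA polymerase epsilon, was at 2.00 to 2.81 CPM in EGK.X blastoderms, 5.47 to 5.83 CPM in CEFs, and 8.31 to 9.58 CPM in PGCs. PARP3 and POLE4 were thus called lower in EGK.X blastoderms than in either other group, whereas NTHL1, NEIL2, and MUTYH had their highest level there.

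**Figure D5:**
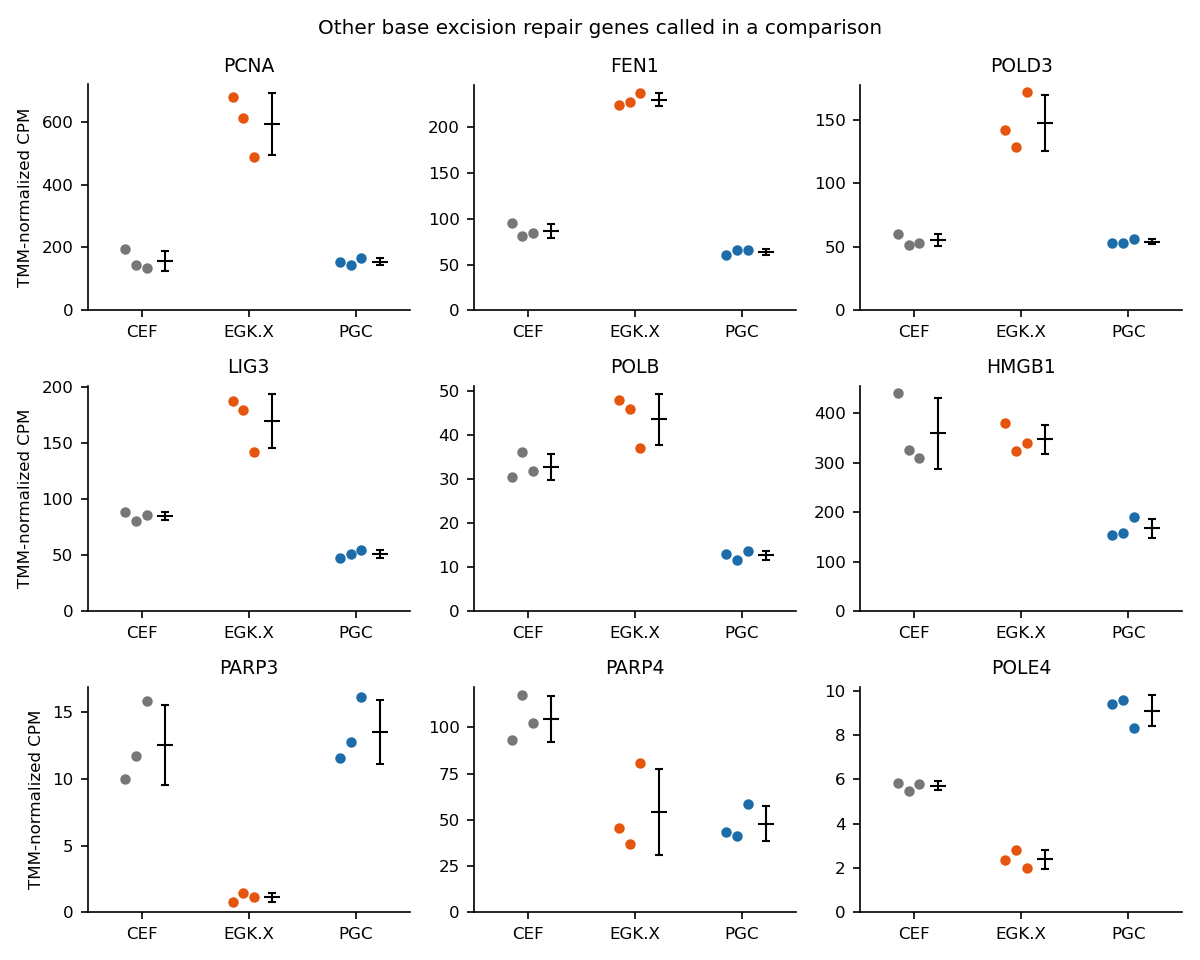
TMM-normalized CPM (vertical axes, linear and starting at 0) of the 9 other base excision repair genes called in a comparison, in each library (points), with the mean and SD of 3 beside them. PCNA, FEN1, POLD3, and LIG3 were highest in EGK.X blastoderms, POLB, LIG3, and HMGB1 lowest in PGCs, and PARP3 and POLE4 lowest in EGK.X blastoderms.

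The genes of the study's table whose profiles were most like those of the glycosylases were looked up by the Euclidean distance between centred log2(CPM + 1) values over the 9 libraries, as a description without a test. The libraries of a group share their source, so the 9 libraries are not 9 unrelated points of a profile. The distances take in the spread within groups as well as the differences between them. NTHL1 was closest to BRCA1 (distance 0.41), at a mean of 97.8 CPM in CEFs, 314 CPM in EGK.X blastoderms, and 217 CPM in PGCs, and then to MAPK8 (0.50). NEIL1 was closest to SYCP3 (0.62), a protein of the meiotic chromosome axis, at 2.51, 1.96, and 5.19 CPM, and then to RAD51D (0.86). MUTYH was closest to RAD52 (0.57) and LIG1 (0.79), and SMUG1 to RAD54B (0.47) and KAT6A (0.58). NEIL3 was closest to MLH3 (0.53) and MSH6 (0.61), and MBD4 to MPG (0.55) and MLH3 (0.58). NEIL2 was closest to POLD3 (0.22) and GTF2H2 (0.39), on a scale that shrinks the changes of a gene at its low level.

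UNG had no such close partner by this distance, which counts the size of a gene's changes as well as their pattern. The gene with the most similar profile among the 147 compared was BRCA2, at a distance of 1.82, with means of 46.8 CPM in CEFs, 147 CPM in EGK.X blastoderms, and 166 CPM in PGCs. The second was SOX2 at 1.97, with 0.0673, 3.13, and 3.42 CPM. Its blastoderm mean rested on replicate 3, at 5.95 CPM against 1.53 and 1.93 CPM, and without it lay below every PGC library (3.14 to 3.59 CPM). Among the 8 glycosylases themselves, the pair with the most similar profiles was MBD4 and SMUG1, at 0.84. NEIL3 and MBD4 followed at 0.94, and NTHL1 and NEIL3 at 0.97. MPG, a glycosylase outside these 8, was closer to MBD4, at 0.55.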

How the data were processed

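The deposited files hold read counts per gene, without normalization, for 9 libraries. According to the study's methods and the submitters' processing notes, the authors trimmed paired reads of stranded total RNA libraries with Trimmomatic 0.39, aligned them to GRCg6a with HISAT2 2.2.0, and had HTSeq-count assign them to Ensembl genes. Its strand setting and overlap mode are not given in the sources used here. The authors also deposited a normalized signal per gene, each count over the library size after TMM, in CPM, which was recomputed from the counts and differed by at most 3.25e-06%. Summary entries for records not assigned to a gene, 46.6% to 51.5% of a library, were left out.

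The 22698 genes with 1 count or more entered 1 fit of all libraries in edgeR 4.0.16 in R 4.3.3 (TMM factors, quasi-likelihood test, prior count 0.125, no replicate block), with Benjamini-Hochberg adjustment over all genes. SE was taken from the log2 fold change and the F statistic (their ratio after its root) and is rough at low counts. The replicates are described as biological. Shares and ratios were tested by exact permutation with SciPy 1.17.1. On counts simulated for PGCs against CEFs over 22438 genes, the test found 165 of 200 changed genes and called 11 unchanged ones. The simulation changed a far smaller part of the genes than was called in the data, and none with low counts. It was scored by the adjusted p alone, so these rates do not carry over to the calls above. Names and positions came from the study's supplementary gene table, matched by Ensembl identifier. The alternatives were the likelihood ratio test that the study used, DESeq2 1.42.0, limma 3.58.1 on log2(CPM + 1) of the normalized signal, other scalings, filters, thresholds, and samples, the replicate block, and each library left out. Adding 1 CPM before the log shrinks fold changes at low levels, so a call lost with limma there may reflect this step.

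All 8 glycosylases were named, with the other BER genes called in a comparison, TDG, MPG, and OGG1 as further glycosylases (added after their values were seen), and, for each glycosylase, the 2 genes of the study's table with the most similar profile among those with a mean of at least 1 CPM. The members, lists, and tests were chosen with earlier results of these data known.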

Additional observations from a re-analysis of the deposited data

How the results depend on the processing

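The 7 genes with a fitted fold change gave 399 values under the alternatives, of which 364 kept their direction and call, 11 lost a call, 17 gained one, and 7 changed sign. UNG kept its calls against CEFs in all of them, with log2 fold changes from 2.95 to 3.54 for EGK.X blastoderms and from 3.04 to 3.81 for PGCs, as did NTHL1 for EGK.X blastoderms from 1.45 to 2.04. The changes of sign concerned no called change. For SMUG1 in PGCs against CEFs the value was 0.59 with library size alone and 0.022 with upper-quartile factors, and the other 5 each left out a library. Over all libraries left out in turn, NEIL1 in EGK.X blastoderms against CEFs ranged from -0.31 (without EGK.X blastoderm replicate 3, and -0.09 without CEF replicate 2) to 0.33. MUTYH in PGCs against CEFs ranged from -0.11 (without CEF replicate 2) to 0.47. In PGCs against EGK.X blastoderms, NEIL3 ranged from -0.71 to 0.0084 and MBD4 from -0.48 to 0.19, both highest without EGK.X blastoderm replicate 3. The cause was not tested.

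The 3 glycosylases called higher in PGCs against CEFs became 5 with library size alone and 1 with glmTreat. The number was 1 with limma on log2(CPM + 1) values, and 1 to 4 when a library was left out. In PGCs against EGK.X blastoderms, NEIL1 was the 1 gene called higher with DESeq2, DESeq2 size factors, library size alone, the replicate block, and the adjusted p alone, and 0 to 1 were when a library was left out. The adjusted p alone gave 2 called lower there. The 4 called higher in EGK.X blastoderms against CEFs stayed between 3 and 6 in all settings. Among the other BER genes, the 3 called higher in EGK.X blastoderms became 5 with DESeq2, DESeq2 size factors, and the fit of the 2 groups compared, 8 with library size alone, 6 with upper-quartile factors, 10 with the adjusted p alone, and 3 to 5 when a library was left out. The 2 called lower there became 1 with library size alone, 4 with the adjusted p alone, and 1 with glmTreat. In PGCs against CEFs, library size alone gave 4 higher and 0 lower, the adjusted p alone 2 higher and 6 lower, and glmTreat 1 lower.

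Library size alone raised the share of higher calls among all genes from 51.7% to 66.4% in EGK.X blastoderms against CEFs and from 56.2% to 75.1% in PGCs against CEFs. Replicate numbers showed no clear pairing of the samples, in a check limited by 3 libraries per group. Deviations of same-numbered libraries had correlations of -0.17 to 0.23 across 13812 genes, and those of differently numbered ones -0.24 to 0.26. The replicate block moved 1 call of the glycosylases, that of NEIL1 in PGCs against EGK.X blastoderms (log2 fold change 1.09, adjusted p = 0.0104), and left the other counts within 1.5 times. With TDG and MPG added to the sum, chosen after seeing the data, the mean UNG share of CEFs was 6.50%, that of EGK.X blastoderms 28.0%, and that of PGCs 37.7%. The called changes of the other BER genes gave 304 values, of which 295 kept their call and 9 lost it, those of POLE4, POLB, PARP4, and HMGB1. The UNG share weighted by coding length was not run, as no transcript lengths of this annotation were used. At the depth of these libraries NEIL2 could not be compared between PGCs and CEFs.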
